A study of Solanum lycopersicum with 2 samples.

Results

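The genes described here supply the isoprenoid precursors of the plastid in red ripe tomato fruit. They are 7 of the 34725 tomato gene identifiers in the expression table, chosen as the loci assigned to DXS1, DXR, HDS and HDR of the methylerythritol phosphate (MEP) pathway and to the geranylgeranyl diphosphate synthases GGPS1, GGPS2 and GGPS3. They were taken by locus number, and all 7 were found. RNA was sequenced from fruit of the wild type (CK) and of an ALMT9 over-expression line (OX1) grown at 28 °C by day and 20 °C by night. Fruit was harvested at 49 days after flowering, from 3 plants per genotype. ALMT9 belongs to the aluminum-activated malate transporters, membrane channels that carry malate, and the series asks which genes accompany its overexpression in ripening fruit. Each genotype has 1 library, and the labels do not state whether fruit of the plants was pooled. The overexpression material is 1 line, whose promoter and parent cultivar the labels do not name. Without replicates no p-value could be computed, and every comparison below is between 2 libraries, not between genotypes.

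The MEP pathway makes isopentenyl diphosphate and its isomer dimethylallyl diphosphate in plastids from pyruvate and glyceraldehyde phosphate. DXS catalyses the entry step and DXR the first step committed to isoprenoids, while HDS and HDR catalyse the last steps. GGPS enzymes join these units into geranylgeranyl diphosphate, from which plastids build carotenoids and the side chains of chlorophyll and tocopherol. The main carotenoid of ripe tomato fruit is lycopene, its red pigment.

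Values are RPKM, reads per gene normalised for the length of the gene model and the size of the library. The totals recovered for the libraries were 19736832 reads (wild type) and 19252026 reads (overexpression). The locus entered for ALMT9, Solyc06g072910.2, stood at 0.0742 RPKM in wild-type fruit and at 20.5 RPKM in overexpression fruit, the direction of the labels. All 6 loci entered as markers of ripe fruit were abundant in both libraries, from 554 to 3979 RPKM in wild-type fruit and from 524 to 2363 RPKM in overexpression fruit. They differed in both directions, with 4 below and 2 above 0 on the log2(RPKM + 1) scale, from -0.98 to 1.86, and 1 was at least 2-fold higher (from 648 to 2363 RPKM). The 4 loci entered for green tissue summed to 14.4 and 20.6 RPKM, of which 1 was listed at 0 in wild-type fruit and 2 with overexpression. The 4 loci entered for seed oleosins were lower with overexpression, by log2 ratios from -2.62 to -1.24. Their sums were 88.8 RPKM in the wild type, where they ran from 9.86 to 50.2, and 15.2 RPKM in overexpression fruit, where they ran from 1.19 to 7.31, with none at 0. All 4 were at least 2-fold lower in the overexpression library. The marker loci of ripe fruit, green tissue and seed were entered from locus assignments with no table at hand to check them. The part of seed tissue and of ripening state in the differences below was not tested. In whole fruit, fewer cells of a type and less RNA per cell cannot be told apart.

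Of the MEP and GGPS genes, DXS1 differed most among those above 1 RPKM and was lower in the overexpression library. HDR, HDS, GGPS2 and GGPS3 were lower by less, DXR was higher, and GGPS1 was barely detected. Differences were taken as log2((overexpression RPKM + 1)/(wild type RPKM + 1)) among genes that averaged 1 RPKM or more over the libraries, which 6 of the 7 genes reached. Of these 6, 1 gene (DXS1) was at least 2-fold lower and 0 were at least 2-fold higher. Across all 17287 genes at that level, 4.3% were at least 2-fold lower and 8.09% at least 2-fold higher. Below 0 on this scale lay 5 of the 6 genes, against 48.8% of all genes. Their median log2 ratio was -0.36, and that of all genes was 0.02. Exact 95% intervals of the RPKM ratio, which cover counting error only, lay below 1 for 5 of the 6 and above 1 for 1. Such intervals lay below 1 for 29.9% and above 1 for 32.5% of all genes, so leaving out 1 was common at this depth.

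**Figure D1:**
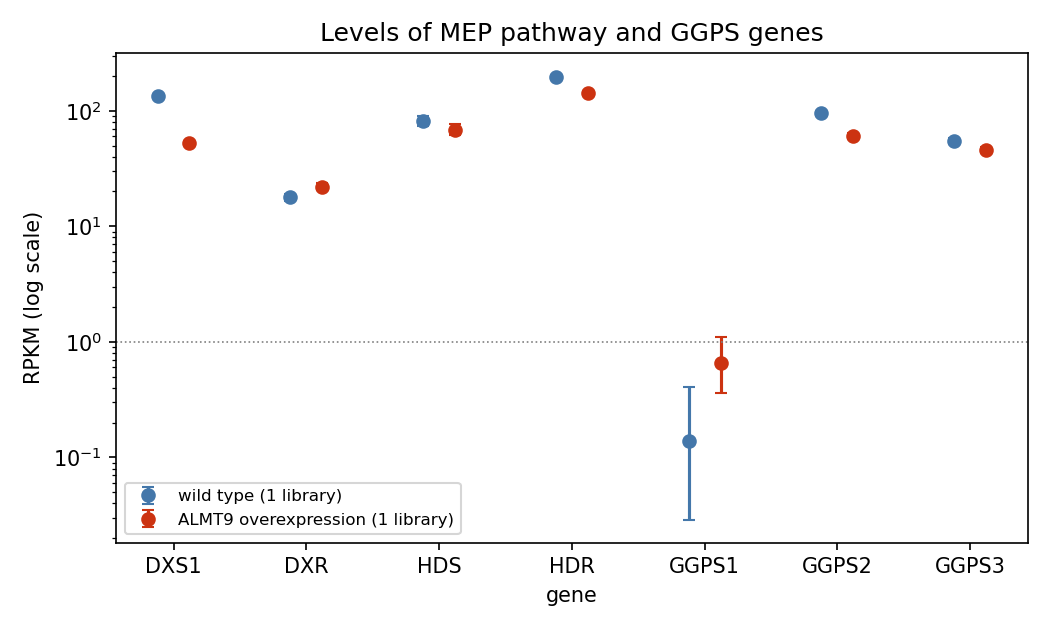
RPKM (log scale) of the 7 genes in the wild type (blue) and the ALMT9 overexpression library (red). Points are the single library of each genotype, bars are exact 95% Poisson intervals from recovered reads (counting error only), and the dotted line marks 1 RPKM. DXS1 stood at 133 and 52.6 RPKM, and GGPS1 lay below 1 RPKM in both libraries.

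DXS1 (Solyc01g067890.2, numbered on chromosome 1) encodes a 1-deoxy-D-xylulose 5-phosphate synthase, the entry enzyme of the pathway. It stood at 133 RPKM in wild-type fruit and 52.6 RPKM in overexpression fruit, from 7007 and 2697 recovered reads. The wild type was the higher library, and the intervals of the levels, 130 to 137 and 50.7 to 54.6 RPKM, did not overlap. The RPKM ratio was 0.395 (counting interval 0.377 to 0.413), and the log2 ratio was -1.33. Only 2.0% of the tested genes had a lower log2 ratio. Among the 2646 genes whose mean RPKM lay within 2-fold of that of DXS1, 119 (4.5%) were at least 2-fold lower and 161 (6.08%) at least 2-fold higher. In the order of all identifiers by RPKM, DXS1 was at rank 1061 in wild-type fruit and rank 3000 in the overexpression library.

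DXR (Solyc03g114340.2, chromosome 3) encodes the reductoisomerase that acts on the product of DXS. It stood at 17.8 RPKM in wild-type fruit and 22.1 RPKM in overexpression fruit, from 645 and 781 reads. It was the only gene of the 6 above 1 RPKM that was higher in the overexpression library. Its ratio was 1.24 (counting interval 1.12 to 1.38) and its log2 ratio 0.30, within 2-fold. The log2 ratio exceeded that of 70.3% of all tested genes, and of 74.8% of the 6257 genes whose mean RPKM lay within 2-fold of that of DXR.

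HDS (Solyc11g069380.1, chromosome 11) encodes the synthase of hydroxymethylbutenyl diphosphate, the substrate of HDR. Its levels were 82.1 RPKM in wild-type fruit and 68.3 RPKM in overexpression fruit. The wild type was higher, but the counting intervals of the levels, 74.2 to 90.5 and 61.1 to 76.2 RPKM, overlapped. The ratio was 0.833 with an interval of 0.717 to 0.967, and the log2 ratio was -0.26. These intervals rest on the smallest read numbers that the values allow, 400 and 325 for a length of 247 bp. For gene models of version 1, as here, 92.7% of the recovered lengths over the whole table were multiples of 3, which 247 is not. The true numbers are therefore probably a whole multiple of these and the intervals too wide, so the overlap may not hold.

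HDR (Solyc01g109300.2, chromosome 1) encodes the reductase that releases both isomeric end products of the pathway. It was the most abundant of the 7 genes in both libraries, with 196 RPKM in wild-type fruit and 142 RPKM in overexpression fruit. The wild type was higher and the intervals of the levels, 190 to 203 and 136 to 147 RPKM, did not overlap. The ratio was 0.721 with an interval of 0.686 to 0.757, a log2 ratio of -0.47.

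The balance among the 4 MEP genes differed between the libraries, in quotients that no scaling of a library can alter. DXS1 stood at 0.679 times the level of HDR in wild-type fruit and at 0.372 times in the overexpression line. Against HDS the quotient was 1.63 in wild-type fruit and 0.77 in the overexpression line, so the order of these genes was reversed. Against DXR it was 7.50 and 2.39. The quotient of HDR to HDS, 2.39 in wild-type fruit and 2.07 in the overexpression line, was closer between the libraries. Summed over the 4 genes, levels were 430 RPKM in wild-type fruit and 285 RPKM in overexpression fruit, a ratio of 0.662. Without DXS1 the sums were 296 and 232 RPKM, a ratio of 0.783.

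**Figure D2:**
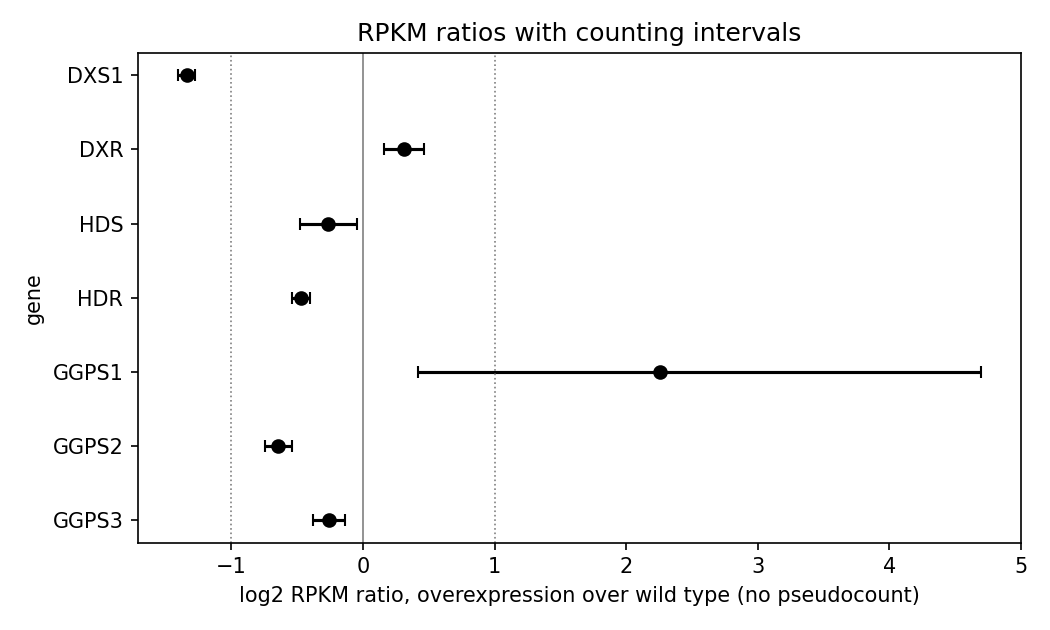
Log2 RPKM ratio of the overexpression library over the wild type, without a pseudocount, for the 7 genes. Points are the ratios and bars the exact 95% counting intervals, the solid line marks equal levels and dotted lines mark 2-fold. The interval of DXS1, 0.377 to 0.413 as a ratio, lies wholly beyond 2-fold lower, and that of GGPS1 is the widest, 1.34 to 26.0.

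The GGPS genes differed by orders of magnitude in level, and the abundant members were both lower in the overexpression library. GGPS2 (Solyc04g079960.1, chromosome 4) stood at 94.6 RPKM in wild-type fruit and 60.6 RPKM in overexpression fruit, from 2039 and 1273 reads. The wild type was higher, with level intervals of 90.5 to 98.8 and 57.3 to 64.0 RPKM that did not overlap. The ratio was 0.640 with an interval of 0.596 to 0.687, a log2 ratio of -0.64, and 10.9% of tested genes had a lower one.

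GGPS3 (Solyc02g085700.1, chromosome 2) encodes another synthase of the same family. It stood at 55.0 RPKM in wild-type fruit and 45.9 RPKM in overexpression fruit, from 1175 and 958 reads. The wild type was again the higher library, and the level intervals of 51.9 to 58.2 and 43.1 to 49.0 RPKM did not overlap. Its ratio was 0.836 with an interval of 0.767 to 0.911 and its log2 ratio -0.25. The ratio intervals of GGPS2 and GGPS3 did not overlap.

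GGPS1 (Solyc11g011240.1, chromosome 11) was close to the limit of detection, at 0.138 RPKM in wild-type fruit and 0.662 RPKM in overexpression fruit. These levels rest on 3 and 14 recovered reads, and their intervals, 0.0285 to 0.405 and 0.362 to 1.11 RPKM, overlapped. The RPKM ratio was 4.78 with an interval of 1.34 to 26.0. With a mean of 0.4 RPKM the gene did not enter the counts above, and its log2 ratio with the pseudocount was 0.55. Reads shared among the GGPS genes could not be separated in these values, since no source used here states how reads with several positions were treated.

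GGPS2 gave most of the GGPS signal in both libraries, though a smaller share in the overexpression line. Of the RPKM summed over the 3 genes, 149.7 in wild-type fruit and 107.2 in the overexpression line, GGPS2 made up 63.2% and 56.5%. GGPS3 made up 36.7% and 42.9%, and GGPS1 0.0925% and 0.618%. As shares of recovered reads, the exact binomial intervals of GGPS2 were 61.7% to 65.0% and 54.6% to 58.8%, which did not overlap.

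**Figure D3:**
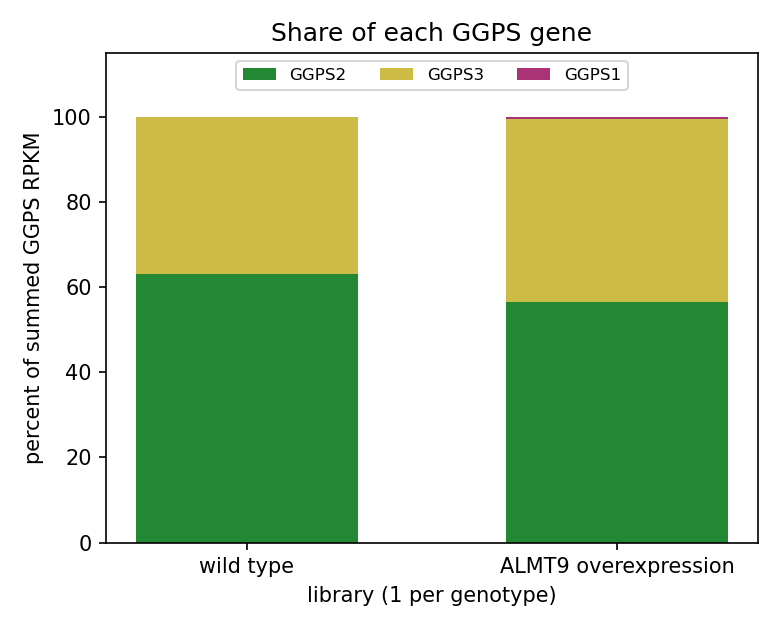
Share of each GGPS gene in the summed RPKM of GGPS1, GGPS2 and GGPS3, as percent, for the single library of each genotype. GGPS2 made up 63.2% in wild-type fruit and 56.5% in the overexpression line, and GGPS1 stayed below 1% in both.

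Ordered by RPKM within the wild type, the genes ran HDR, DXS1, GGPS2, HDS, GGPS3, DXR and GGPS1, and the counting intervals of neighbours in that order did not overlap, by the least for GGPS2 and HDS. In the overexpression library the order was HDR, HDS, GGPS2, DXS1, GGPS3, DXR and GGPS1. There HDS and GGPS2, at 68.3 and 60.6 RPKM, had overlapping intervals. That of HDS is probably too wide, because its read numbers are the smallest possible, for a length of 247 bp. This overlap may therefore not hold. DXS1 went from the second place to the fourth. HDS and the GGPS genes carry gene models of version 1. For such models 92.7% of the recovered lengths over the whole table were multiples of 3, against 30.5% for later versions, so they hold mostly coding length. Levels of these genes and of DXS1, DXR and HDR are therefore per different kinds of length, which affects the order but not the ratios between libraries.

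**Figure D4:**
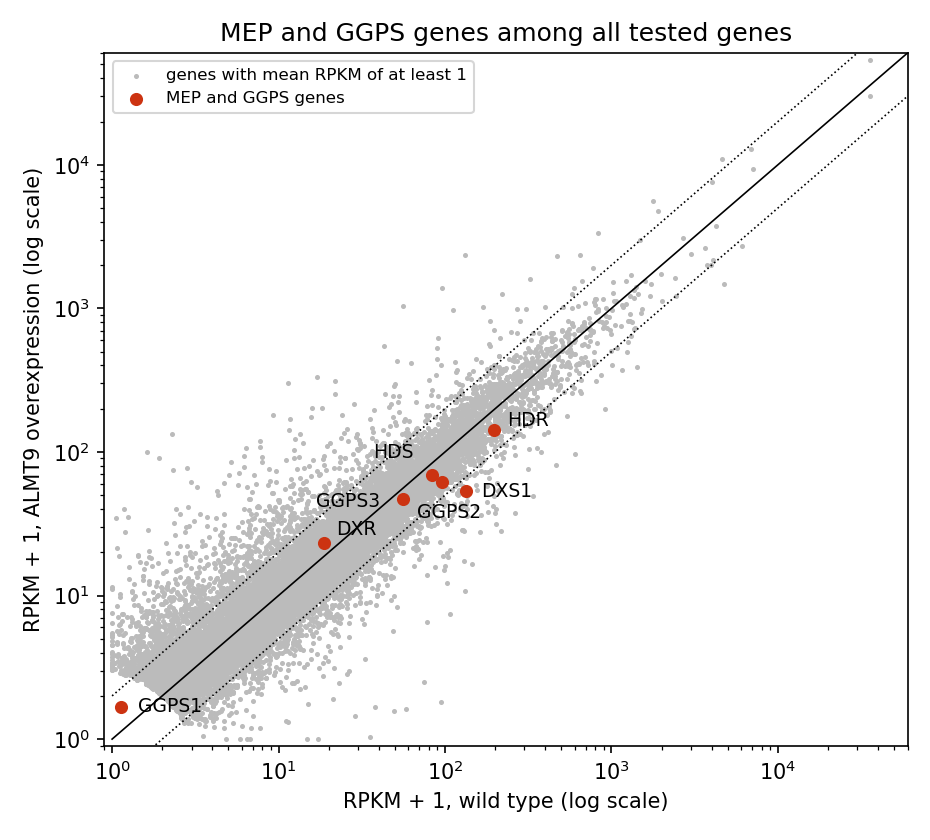
RPKM + 1 in the wild type against RPKM + 1 in the ALMT9 overexpression library, both on log scales. Grey points are the 17287 genes averaging 1 RPKM or more, red points the 7 MEP and GGPS genes, the solid line equal levels and the dotted lines 2-fold. DXS1 lies below the lower 2-fold line, and the other MEP and GGPS genes lie between the lines.

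Position along the chromosome was compared through the 5 identifiers before and the 5 after each gene. Around DXS1, 4 of the 10 flanking loci averaged 1 RPKM or more. Their log2 ratios ran from -0.32 to 0.57, against -1.33 for DXS1 itself. Of the 4, 0 were at least 2-fold apart, beside 12.4% of all genes. Around HDR, 8 flanking loci ran from -0.41 to 1.15, so that HDR at -0.47 lay below all of them. Around GGPS2, 8 flanking loci ran from -0.62 to 1.03, and GGPS2 at -0.64 was again the lowest. For both HDR and GGPS2, the gap to the lowest flanking locus was within the counting interval of the gene itself. DXR, HDS and GGPS3 lay inside the range of their flanking loci, and GGPS1, below 1 RPKM itself, also did. Around each gene other than DXS1, 1 flanking locus was at least 2-fold higher, and around HDS 1 was also at least 2-fold lower. With 2 libraries, likeness of pattern says little about a gene. The identifier nearest to DXS1 by distance of log2(RPKM + 1) values was Solyc04g054310.2, at 134 and 48.4 RPKM, and 12 genes lay within 0.25 log2 units. For DXR it was Solyc01g007120.2, at 17.7 and 22.4 RPKM, and 398 genes lay within 0.25 log2 units.

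Loci entered for the remaining MEP steps were likewise lower in the overexpression library, all within 2-fold. These and the following lists, 26 loci in all, were entered from locus assignments with no table at hand to check them, so their members are not named singly. Of the 4 loci for a further DXS and for the middle enzymes of the pathway, 3 averaged 1 RPKM or more. All 3 lay below 0, from -0.66 to -0.25 with a median of -0.39, and all 3 counting intervals of the ratio lay below 1. Over all genes 48.8% lay below 0 and 29.9% of intervals below 1. The fourth stood at 0.402 RPKM in wild-type fruit and 0.315 RPKM in overexpression fruit. With them, 6 of the 7 measured MEP genes above 1 RPKM were lower and DXR was the exception.

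Isopentenyl diphosphate isomerases, which interconvert the end products, and partners of the prenyl synthases were mixed. Of 6 loci, 5 passed 1 RPKM, 3 lay below 0 and 2 above, with a median log2 ratio of -0.35 and 0 at least 2-fold apart, against 12.4% of all genes. Counting intervals of the ratio lay below 1 for 3, above 1 for 1 and across 1 for 1. Over all genes, 29.9% lay below and 32.5% above 1. With loci below 1 RPKM included the median was -0.15. The most abundant went from 222 to 174 RPKM, and the one with the highest ratio from 11.7 to 23.1 RPKM. Loci entered for enzymes that draw on geranylgeranyl diphosphate, such as phytoene synthases, numbered 5, of which 3 passed 1 RPKM. Of these, 2 lay below 0, with counting intervals of the ratio below 1, and 1 lay above 0, with an interval across 1. Their median was -0.25, and 0 were at least 2-fold apart. This median turned to 0.0035 with the loci below 1 RPKM included, so its direction rests on the minimum. The most abundant, which is also among the markers of ripe fruit above, went from 2408 to 1614 RPKM.

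Loci entered for the mevalonate pathway, which makes the same end products outside the plastid, mostly lay on the other side of 0. All 11 passed 1 RPKM, 10 lay above 0 and 1 below, and the median log2 ratio was 0.47 beside 0.02 for all genes. Of the 11, 2 were at least 2-fold higher and 0 at least 2-fold lower, beside 8.09% and 4.3% of all genes. Counting intervals of the ratio lay above 1 for 9, below 1 for 1 and across 1 for 1, beside 32.5% above and 29.9% below 1 over all genes. The locus below 0 was also by far the most abundant, at 993 RPKM in wild-type fruit and 506 RPKM in overexpression fruit. Because of it, the summed level of the list was lower in the overexpression line, 765 against 1157 RPKM, although its median was above 0. No test of a difference between the pathways was possible with 1 library per genotype.

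**Figure D5:**
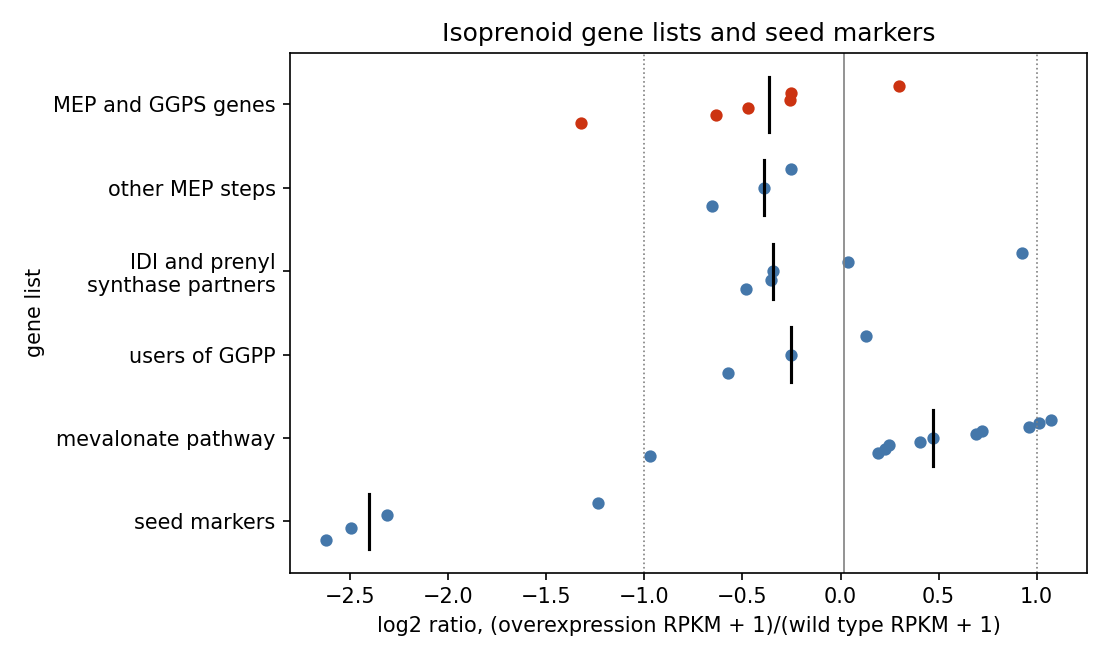
Log2((overexpression RPKM + 1)/(wild type RPKM + 1)) of genes averaging 1 RPKM or more in the MEP and GGPS genes (red) and in other isoprenoid lists and seed markers (blue). Black bars are list medians, the grey line is the median of all genes and dotted lines mark 2-fold. Medians were -0.36 for the MEP and GGPS genes, -0.39 for the other MEP steps, 0.47 for the mevalonate pathway and -2.41 for the seed markers.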

How the data were processed

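The authors deposited 1 table of RPKM values per gene identifier for 2 libraries. TopHat, which aligns reads across splice junctions, is named in the submitters' processing notes with no version. No source used here gives the counting tool, the genome build, the annotation or the strand setting, so overlapping, antisense and near-identical genes are uncertain. Columns were matched to samples by title and groups by the genotype label.

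RPKM values are whole reads divided by gene length and library total. The common factor between the columns was 1.0252. Totals were the largest at which most of 600 trial genes, of gene model version 2 or later, had whole lengths (55.5%, tolerance 0.02 bp). Totals 1.5 times as large gave 24.7% and those 2 times as large 28.5%. Read numbers were taken at the shortest length from 60 to 20000 bp that made both values whole within the printed rounding, which existed for 24426 of 24429 genes above 0. On simulated data for this comparison both totals were returned, and of 2911 genes 83.2% had exact read numbers, the rest whole fractions of them. The simulation took the recovered shortest lengths as true lengths. Real lengths can be longer, so this share may overstate how often the real read numbers are exact.

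Differences used a pseudocount of 1, a minimum mean RPKM of 1 and a threshold of 2-fold; this scale understates ratios of low genes. Ratios have exact (Clopper-Pearson) and levels exact Poisson 95% intervals. These intervals cover counting error only and take each read as independent. PCR copies are not independent molecules, so where they are present the intervals are too narrow. No test was run.

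RefSeq (SLM_r2.1) lists DXS, DXR, HDS, HDR, GGPS1 and GGPS2 on the chromosomes that the identifiers number. It holds no symbol GGPS3, so the locus assigned to GGPS3 could not be compared in this way. Of its 41476 genes, 0 carry these identifiers. Genes, lists, alternatives and the rule for named genes (the 7 genes, their flanking loci, and the nearest gene to the highest and the lowest log2 ratio) were chosen with earlier results of these data known. Calculations used Python 3.11.15, numpy 2.4.6, scipy 1.17.1, pandas 2.3.3 and matplotlib 3.10.9.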

Additional observations from a re-analysis of the deposited data

How the results depend on the processing

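Each of the 7 genes kept the sign of its log2 ratio under 3 other pseudocounts and 5 scalings, but this was fixed in advance. A pseudocount cannot change a sign. The largest scaling shift, -0.09 log2 units for equal sums, was smaller in size than the smallest log2 ratio, -0.25 for GGPS3. DXS1 ran from -1.41 to -1.26 and passed 2-fold under all of these pseudocounts and scalings. GGPS1 ran from 0.14 to 1.68 with pseudocounts of 5 and 0.1. The count of 1 of 6 genes at least 2-fold apart became 2 at 1.5-fold (GGPS2 was added) and 0 at 4-fold. Of the 17287 tested genes, 4982 were apart at 1.5-fold and 435 at 4-fold. Over all genes, the 744 lower, 1398 higher and 2142 apart were 342, 667 and 1009 with a pseudocount of 5. They were 2163, 2819 and 4982 at 1.5-fold, and 94, 341 and 435 at 4-fold. With a minimum mean of 5 RPKM, 860 were higher and 1414 apart, and with 10, 429 were lower, 621 higher and 1050 apart. A higher minimum leaves fewer genes than 17287, so these counts are out of smaller sets. Without a minimum the median of the MEP and GGPS genes was -0.26, that of the isomerases and synthase partners -0.15, and that of the users of geranylgeranyl diphosphate was reversed to 0.0035, because loci below 1 RPKM entered. Scaling to equal sums gave -0.44 for the isomerases and partners. Under the remaining pseudocounts, minimums and scalings, list medians stayed between the medians of their members' lower and upper counting bounds, -0.51 to -0.26 for the MEP and GGPS genes. GGPS2 shares from reads not divided by length were 63.4% and 56.7%. No paired analysis was possible because there is a single library per genotype, which also leaves no replicate to omit. Depth limits GGPS1, with 3 reads in the wild type.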
